A study of Xenopus tropicalis with 16 samples.

Results

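The genes of DNA replication and cell division were followed in the livers of female western clawed frogs (Xenopus tropicalis). Rows of the deposited gene tables were taken where the gene symbol belongs to a fixed set of name families, from the origin recognition, minichromosome maintenance and GINS proteins through cyclins A, B and E to centromere proteins and mitotic kinesins. This gave 101 of the 19921 gene rows. Of these, 93 were assigned a replication or division role and 8 with a matching name were counted apart. The 8 are cdc73, mcm3ap, ccnb1ip1, CDC20B, mcm8, mcm9, cenpj and cenpv. The split is a choice of grouping, since some of the 8, such as cenpj and cenpv, also bear on division. Of the 101 symbols, 99 matched a symbol in the RefSeq gene table for the frog and 2, birc5.1 and birc5.2, matched a synonym.

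Liver messenger RNA was sequenced in 16 libraries that form 4 groups of 4 biological replicates. The unexposed group was the control for livers exposed to benzo[a]pyrene, a polycyclic aromatic hydrocarbon whose metabolites bind DNA, to triclosan, an antibacterial agent, or to a mixture. All animals were female and no genetic modification is given. The sources used here give no doses, durations, ages or make-up of the mixture.

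Replication starts when the origin recognition complex, Cdc6 and Cdt1 load the Mcm helicase on DNA, after which Cdc7, Cdc45 and GINS switch the helicase on and primase, polymerases, the PCNA clamp and its loader copy the strands. Cyclin-dependent kinases drive the entry into S phase and mitosis, and kinetochore proteins, mitotic kinases and kinesins then separate the chromosomes. In adult liver most hepatocytes rest outside the cycle, so these transcripts are usually scarce there. Amphibian liver also contains blood and blood-forming cells. In bulk tissue, fewer cells of a type and less RNA per cell cannot be told apart.

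Values are FPKM (fragments scaled by transcript length and library size), rescaled between libraries. Most members were near the lower end of this scale. The mean over the 16 libraries was at least 10 FPKM for 5 members, from 1 to 10 for 35, from 0.1 to 1 for 48 and below 0.1 for 13. The median of the member means was 0.648 FPKM, against 0.201 over all gene rows. Among 895 member values below 1 FPKM, the median value rested on 22 fragments as implied by the deposited confidence interval. Such numbers are approximate, since the same intervals implied effective lengths of up to 24200 bases (kif18a). CDC20B was listed at 0 in all 16 libraries.

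**Figure D1:**
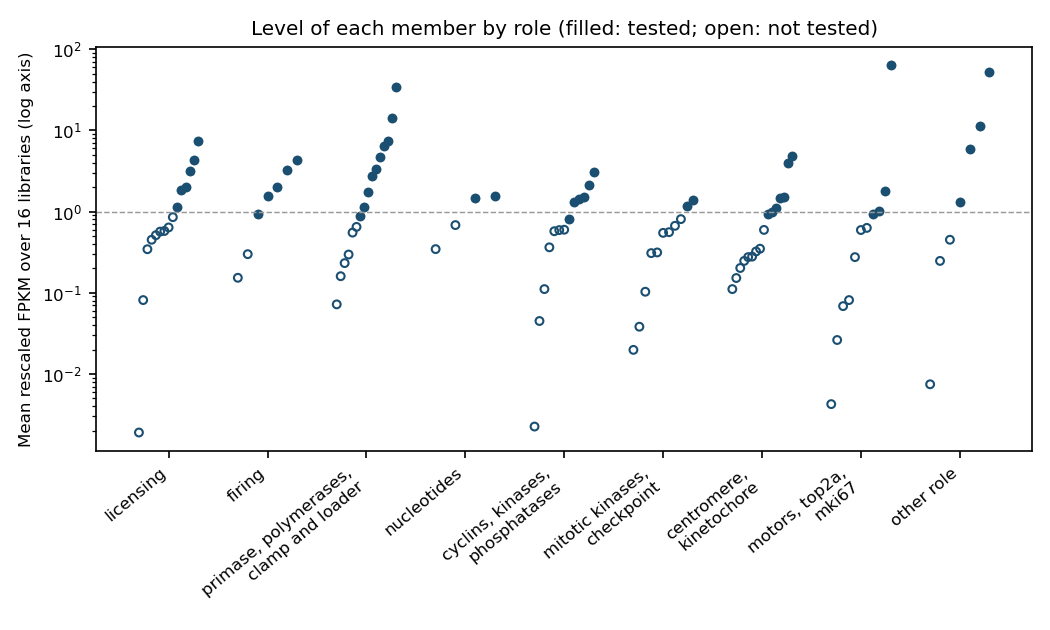
Mean rescaled FPKM over 16 libraries (log axis) for each member by role; filled points were tested, open points were not, the dashed line is 1 FPKM, and CDC20B, listed at 0, is not drawn. Most roles span more than a factor of 10 in level, and kif4a, cenpv, pcna, rfc5 and cenpj stand above 10 FPKM.

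The highest member was kif4a (ENSXETG00000005552, scaffold GL172753.1, 127147 to 143626 as the files give it), which codes for a chromokinesin. In replicate order it stood at 48.9, 21.7, 47.8 and 121.0 FPKM in unexposed livers, 37.0, 25.2, 118.0 and 56.7 in benzo[a]pyrene livers, 75.0, 54.8, 3.93 and 85.0 in triclosan livers, and 76.1, 50.6, 127.0 and 65.0 in mixture livers. The groups overlapped fully, and the values within 1 group varied more than any group mean did from another. cenpv, a centromere protein by name, ranged from 29.6 to 73.9 FPKM, with an effective length of 240 bases implied by its interval and 99.9 to 262 fragments. cenpj, a centriole assembly gene, ranged from 2.34 to 50.5 FPKM with an implied effective length of 670 bases and 22 to 285 fragments. The kif4a row held 194 to 7840 fragments a library. No annotation of the files was used here, so whether these 3 rows measure the named gene alone was not checked.

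pcna, the sliding clamp of the polymerases (ENSXETG00000008193, GL172779.1, 1499412 to 1503546), averaged 35.9 ± 7.66 FPKM (SD, n = 4) in unexposed livers, where replicate 1 was lowest and the others had 37.4, 43.1 and 37.9. It stood at 32.5, 28.4, 37.5 and 31.9 FPKM in benzo[a]pyrene, 52.7, 33.5, 34.9 and 28.1 in triclosan, and 32.0, 32.3, 28.5 and 30.9 in mixture livers. All groups overlapped with the unexposed, and its log2 change with benzo[a]pyrene was -0.11 (SE 0.21, limma adjusted p = 0.834). The clamp loader subunit rfc5 had a mean of 14.1 FPKM and the polymerase delta subunit pold3 one of 7.46.

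Where the frog tables hold a gene and a suffixed paralogue, 1 row of the pair carried nearly all signal. mcm6 was at 0 in all but 2 libraries, with a mean of 0.0019 FPKM, while mcm6.2 ranged from 0.225 to 1.1. ccnb1 was above 0 in 1 library (0.036 FPKM), while ccnb1.2 ranged from 0.54 to 5.09. birc5.1, of the survivin family, reached at most 0.143 FPKM, and birc5.2 stood at 0.46 to 2.18. Reads of near-identical copies could be split between rows, so each of these levels is uncertain. Some rows of familiar proliferation genes held little signal. top2a, the mitotic topoisomerase, reached at most 0.169 FPKM and the checkpoint kinase ttk 0.16, while mki67, the Ki-67 marker, ranged from 0.545 to 1.9. The top2a row held at most 2.96 implied fragments a library, with an implied effective length of 934 bases. Whether it measures the whole gene was not checked.

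The confidence intervals implied between 10.9 M and 17.9 M fragments a library (M, mega). Genes with at least 1 FPKM in at least 4 of the 16 libraries were tested, which left 6919 genes and 46 of the 101 members. When the benzo[a]pyrene libraries were left out of that filter, 42 members passed. ccna2, cenpk, gins2 and pola2 reached it only with them, so counts over the tested members are descriptions. Likewise ccna2 needed the triclosan libraries, gins2 the mixture libraries, and gins2 and pola2 the unexposed libraries. Rows named as ribosomal RNA took 10.59% of the summed FPKM in mixture replicate 4, 3.448% in benzo[a]pyrene replicate 4, and 0.589% to 2.392% in the other libraries. Hepatocyte markers summed to 8200 FPKM or more in every library, and ovary and oocyte markers to at most 0.521 FPKM, with 5 of 10 at 0 throughout.

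No member passed an adjusted p of 0.05 in any of the 5 comparisons or in the test of any difference among the 4 groups. With benzo[a]pyrene, 2 of 6919 genes were called (0.0289%) and the smallest adjusted p of a member was 0.095. With triclosan none was called (0.0%, 302 genes at an unadjusted p under 0.05), and with the mixture none was called (0.0%, 454 genes), the smallest adjusted p of a member being 0.965 and 0.731. Between mixture and benzo[a]pyrene 5 genes were called (0.0723%), with a smallest member value of 0.187. Between mixture and triclosan none was called (0.0%, 200 genes), with a smallest member value of 0.998. The test of any difference called 5 genes (0.0723%), and its smallest member value was 0.188, for cenpk. The 0.095 and the 0.187 were also those of cenpk. It reached the filter only through the benzo[a]pyrene libraries, so its values are descriptions. Among the other members the smallest were 0.14 with benzo[a]pyrene (cenpu) and 0.192 between mixture and benzo[a]pyrene (cdc25b and cdc6). In the test of any difference it was 0.33 (rfc4). All are limma values adjusted by the Benjamini-Hochberg method over all genes. The 3 exposures share the 4 unexposed libraries, so their changes are not independent of each other. The comparison of mixture with benzo[a]pyrene likewise shares the benzo[a]pyrene libraries with that of benzo[a]pyrene with unexposed, so opposite signs in these 2 are not independent observations.

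The median member difference from the unexposed livers was furthest from 0 with benzo[a]pyrene, in values that stayed short of the threshold. Against the unexposed livers, 41 of 46 tested members lay above 0 (50.4% of all genes did), with a median log2 difference of 0.27 against 0.004 over all genes. An unadjusted p under 0.05 was reached by 12 members on the higher side, 26.1% against 8.47% of all genes, and by 1 on the lower side, 2.17% against 6.06%. In 8 members every benzo[a]pyrene library was above every unexposed one, 17.4% against 4.96% of all genes: cenpk, cenpu, rfc4, prim1, mcm10, mcm7, gins1 and pold3. The 46 include 4 members that reached the filter only through the benzo[a]pyrene libraries, cenpk among them. cenpk is counted in both the 12 and the 8, so these counts are descriptions. None lay entirely below (0.0%, against 2.79%). With no filter on level, 81 of 100 members lay above 0 (49.8% of all genes), and the median was 0.127. With the filter, the median was 0.187, with 36 of 45 members above 0, without benzo[a]pyrene replicate 4, and 0.408 without unexposed replicate 2. It was 0.442 with a pseudocount of 0.1 in place of 1.

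Member medians were nearer 0 in the other exposures. With triclosan, 35 of 46 tested members lay above 0 (49.8% of all genes), with a median of 0.14. That median was 0.0504 without triclosan replicate 1 and 0.257 without unexposed replicate 2, so single libraries set its size. Of the 46, 3 had an unadjusted p under 0.05 on the higher side (2.05% of all genes), and 1, mcm3ap, did not overlap (1.24%). With the mixture, 20 members lay above 0 and 26 below (47.8% of all genes above), with a median of -0.03. This median was 0.0514 without unexposed replicate 2, 0.00115 without mixture replicate 4 and -0.12 without mixture replicate 3. Without rescaling, the median of all genes itself moved to -0.155 and that of the members to -0.132, with 49 tested. On the higher side, 4 members had an unadjusted p under 0.05 with the mixture (3.35%), and 2, ccne1 and rfc1, did not overlap (2.51%).

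Set directly against benzo[a]pyrene, the mixture livers were lower for most members. Of 46, 37 lay below 0 and 9 above (47.0% of all genes above), with a median log2 difference of -0.33 against -0.026 over all genes. Of these, 11 had an unadjusted p under 0.05 on the lower side (7.54% of all genes) and 2 on the higher side (5.58%). Every mixture library was below every benzo[a]pyrene library in 7 members (15.2%, against 3.14%): cenpk, cdc6, rrm1, rfc4, cdc7, kif22 and gins4. ccna2, cenpk, gins2 and pola2 reached the filter only through the benzo[a]pyrene libraries, and all lay below 0 here. The 37, the median, the 11 and the 7 are therefore descriptions, with cenpk among both the 11 and the 7. The median of -0.33 was not recomputed with libraries left out or with no filter. Of the 93 members with a replication or division role, benzo[a]pyrene replicate 4 was highest of the 16 libraries for 36. Mixture replicate 4 was lowest for 30. Both were also the libraries richest in ribosomal RNA (3.448% and 10.59%). Between mixture and triclosan, 34 members lay below 0 and 12 above (50.6% above over all genes), with a median of -0.12. There, 4 had an unadjusted p under 0.05 on the lower side (1.84%), and 2, ccnb3 and kif22, did not overlap (1.37%). The part of the sum of squares that lay between groups had a median of 31.5% for a tested member and 23.2% for any tested gene. Scatter between libraries alone also gives a part above 0, so these are not shares due to exposure.

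**Figure D2:**
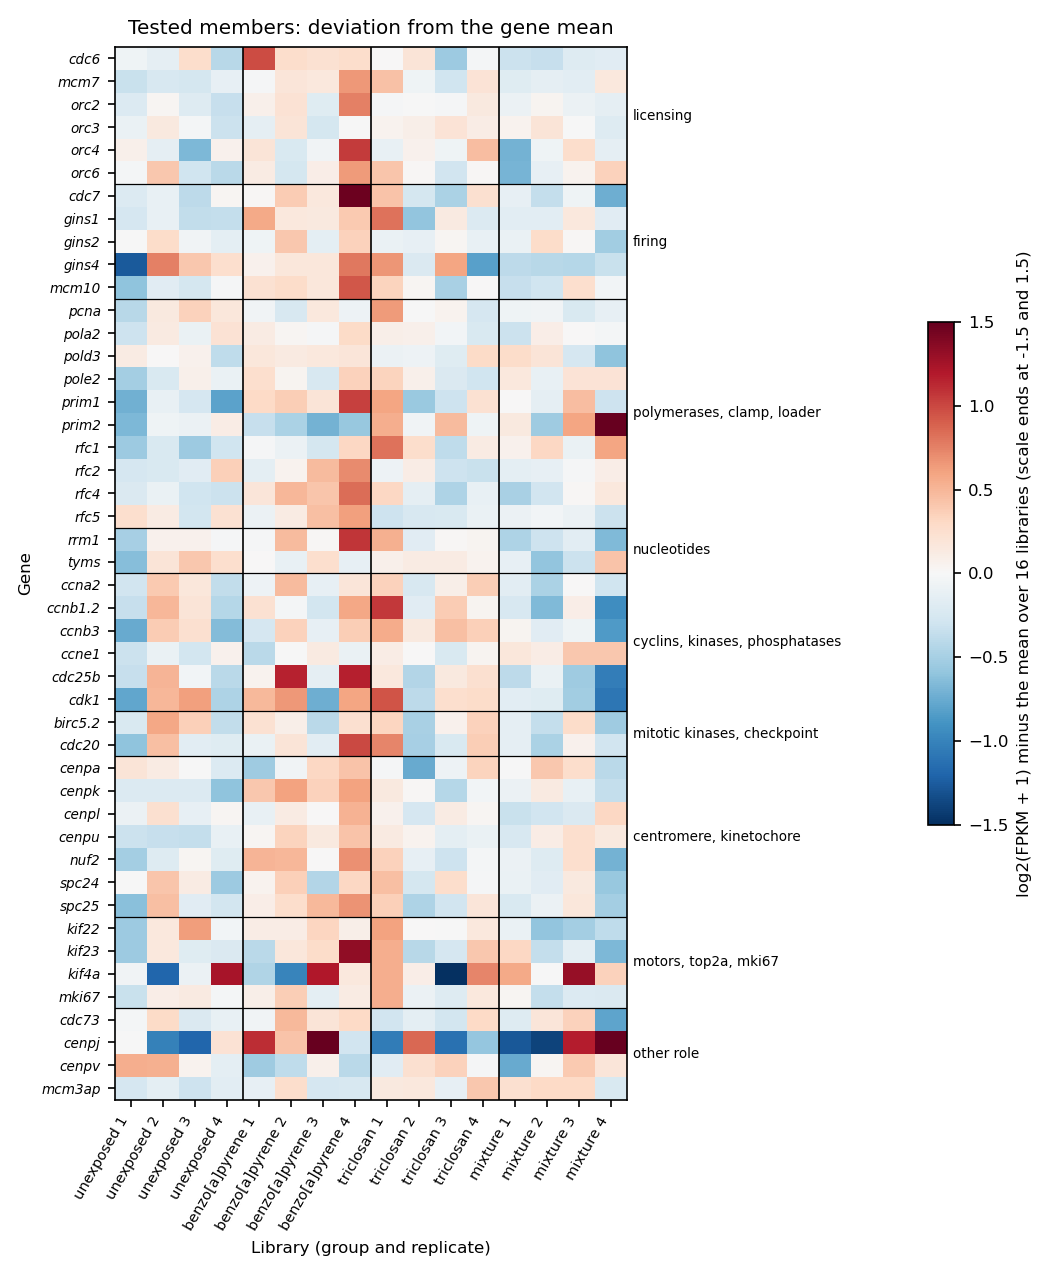
Each row is a tested member, ordered by role, and each column a library; colour is log2(rescaled FPKM + 1) minus the gene's mean over the 16 libraries, with red above and blue below, and the scale ends at -1.5 and 1.5. Benzo[a]pyrene replicate 4 and triclosan replicate 1 hold long runs of red, while unexposed replicate 1 and mixture replicate 4 hold long runs of blue.

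Among the licensing genes, all 6 that were tested lay above 0 with benzo[a]pyrene. cdc6, which brings the helicase to the origin (ENSXETG00000024394, GL173218.1, 242695 to 251559), stood at 0.99, 0.886, 1.5 and 0.558 FPKM in unexposed, 3.11, 1.49, 1.44 and 1.5 in benzo[a]pyrene, 1.08, 1.37, 0.427 and 1.04 in triclosan, and 0.667, 0.64, 0.823 and 0.85 in mixture livers. The lowest benzo[a]pyrene liver was under the highest unexposed one but above all mixture livers. The fitted log2 difference was 0.52 (SE 0.20, adjusted p = 0.272 by limma) against the unexposed, and -0.69 (SE 0.20, adjusted p = 0.192) for mixture against benzo[a]pyrene. mcm7, a helicase subunit, had 1.33, 1.49, 1.45 and 1.7 FPKM in unexposed and 1.89, 2.33, 2.28 and 3.61 under benzo[a]pyrene, with no overlap and a log2 difference of 0.48 (SE 0.17, adjusted p = 0.251). The mcm7 row overlaps those of ap4m1 and of microRNAs, and the sources used here do not say whether counting used the strand. orc2, of the origin recognition complex, stood at 2.66 ± 0.397 and 3.94 ± 1.44 FPKM (SD, n = 4) in the same groups.

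Several licensing genes were too low to test. orc1, the ATPase of the origin recognition complex, stood at 0.735, 0.822, 0.602 and 0.657 FPKM in unexposed and 0.966, 1.32, 1.19 and 1.87 under benzo[a]pyrene, against 0.592 to 0.818 with triclosan and 0.499 to 0.901 with the mixture. Each benzo[a]pyrene liver was above the other 12. Helicase subunits mcm2 and mcm5 had group means of 0.535 ± 0.199 and 0.637 ± 0.216 FPKM in unexposed, 0.676 ± 0.389 and 0.778 ± 0.303 in benzo[a]pyrene, and 0.203 ± 0.107 and 0.342 ± 0.182 in mixture livers (SD, n = 4). For mcm2 the mixture libraries reached up to 0.349 FPKM and the benzo[a]pyrene libraries down to 0.299, so these overlapped. For mcm5 they did not, but only just, with mixture values up to 0.499 FPKM and benzo[a]pyrene values from 0.501. The mcm5 row held 3.24 to 107 implied fragments a library. The loading factor cdt1 ranged from 0.424 to 1.07 FPKM.

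The untested members were also read for overlap, with no test. Among the 54 with any signal, 3 lay entirely above the unexposed livers with benzo[a]pyrene, against 1.74% of 9532 untested genes: orc1, the catalytic polymerase delta subunit pold1 and the centromere protein cenpo. None lay entirely below (0.934%). Between mixture and benzo[a]pyrene, 5 of the 54 were entirely lower (1.74%), namely these 3, mcm5 and the checkpoint gene bub1b, and none entirely higher (1.29%). The margin was narrow for mcm5, at 0.499 against 0.501 FPKM, and for bub1b, at 0.655 against 0.671. Against the unexposed livers, ccna1 and mcm4 were entirely lower with the mixture (0.902%), and ccna1 also with triclosan (0.818%). The ccna1 row reached at most 0.137 FPKM and held 0 to 7 implied fragments a library, with a median of 1. aurkb was entirely lower in mixture than in triclosan livers (1.07%), none was entirely higher there (0.598%), and its row overlaps that of a small nucleolar RNA.

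Of the origin-firing genes, all 5 that were tested lay above 0 with benzo[a]pyrene. mcm10, which helps to open the helicase, had 0.625, 1.2, 1.06 and 1.45 FPKM in unexposed and 1.9, 2.0, 1.78 and 3.72 under benzo[a]pyrene, a log2 difference of 0.67 (SE 0.21, limma adjusted p = 0.195) with no overlap. The GINS subunit gins1 had 3.28, 3.73, 2.94 and 2.99 FPKM and then 6.55, 4.68, 4.66 and 5.68, again with no overlap (0.59, SE 0.23, adjusted p = 0.283). cdc7, the kinase that triggers firing, stood at 1.43, 1.61, 1.14 and 1.87 FPKM in unexposed, 1.84, 2.65, 2.13 and 6.82 in benzo[a]pyrene, and 1.58, 1.2, 1.68 and 0.691 in mixture livers. Its benzo[a]pyrene mean rests in large part on replicate 4, although all 4 libraries exceeded the mixture ones (log2 difference -0.82, SE 0.28, adjusted p = 0.255). gins4 was at 1.97 to 2.17 FPKM in the mixture and at 3.15 to 5.89 with benzo[a]pyrene, while its unexposed libraries spread from 0.658 to 5.72. cdc45 was untested, at 0.0947 to 0.809 FPKM.

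With benzo[a]pyrene the fitted differences of the 2 primase subunits had opposite signs. Both were fitted above the unexposed livers with triclosan (log2 difference 0.46 for prim1 and 0.4 for prim2) and with the mixture (0.48 and 0.66). prim1, the catalytic subunit that lays down the RNA primer (ENSXETG00000025421, GL173158.1, 30305 to 39404), stood at 1.47, 2.79, 2.43 and 1.34 FPKM in unexposed, 4.02, 4.25, 3.67 and 7.27 in benzo[a]pyrene, 5.17, 1.78, 2.3 and 3.79 in triclosan, and 3.11, 2.7, 4.62 and 2.3 in mixture livers. All benzo[a]pyrene livers were above all unexposed ones (log2 difference 0.94, SE 0.27, limma adjusted p = 0.155). prim2, the regulatory subunit, stood at 0.544, 1.37, 1.33 and 1.67 FPKM in unexposed, 0.944, 0.77, 0.505 and 0.669 in benzo[a]pyrene, 2.59, 1.38, 2.42 and 1.37 in triclosan, and 1.73, 0.713, 2.73 and 7.04 in mixture livers. Its log2 difference with benzo[a]pyrene was -0.35 (SE 0.34, adjusted p = 0.664), and mixture stood above benzo[a]pyrene by 1.00 (SE 0.34, adjusted p = 0.252), with replicate 4 far above the other mixture livers. Whether the changes of the 2 genes differ was not tested.

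All 4 tested clamp loader genes lay above 0 with benzo[a]pyrene. rfc4 (ENSXETG00000019391, GL172955.1, 344777 to 364650) stood at 5.19, 5.71, 4.82 and 4.72 FPKM in unexposed, 7.14, 9.11, 8.56 and 11.8 in benzo[a]pyrene, 7.9, 5.53, 4.21 and 5.61 in triclosan, and 4.11, 4.85, 6.28 and 6.97 in mixture livers. Benzo[a]pyrene livers were all above the unexposed (log2 difference 0.72, SE 0.20, limma adjusted p = 0.142) and all above the mixture (-0.64, SE 0.20, adjusted p = 0.205 for mixture minus benzo[a]pyrene). The benzo[a]pyrene differences of rfc1, rfc2 and rfc5 were 0.39 (SE 0.23), 0.35 (SE 0.20) and 0.20 (SE 0.18). rfc1, the large subunit, had 2.74, 3.66, 2.75 and 3.44 FPKM in unexposed and 4.72, 5.81, 4.1 and 7.24 in mixture livers, with no overlap (0.62, SE 0.23, adjusted p = 0.731). With triclosan it had 8.63, 5.55, 3.22 and 4.96 FPKM, which overlapped (0.61, SE 0.23, adjusted p = 0.965). The replicative polymerase rows pola1, pold1 and pole had means of 0.072, 0.296 and 0.232 FPKM and were not tested, and rfc3 had one of 0.648. pold3 was tightly grouped with benzo[a]pyrene, at 8.15 to 8.43 FPKM against 5.39 to 8.12 in the unexposed livers, and its log2 difference was only 0.20 (SE 0.20).

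Of the genes that supply nucleotides, rrm1 and tyms were tested. rrm1, the large subunit of ribonucleotide reductase (ENSXETG00000003999, GL173612.1, 180650 to 207400), stood at 0.666, 1.46, 1.46 and 1.33 FPKM in unexposed, 1.33, 2.27, 1.39 and 3.97 in benzo[a]pyrene, 2.41, 1.1, 1.38 and 1.42 in triclosan, and 0.703, 0.893, 1.11 and 0.491 in mixture livers. Mixture livers were below all benzo[a]pyrene livers (-0.79, SE 0.23, limma adjusted p = 0.194) and overlapped with triclosan by 1 library (-0.51, SE 0.23, adjusted p = 0.998). tyms, thymidylate synthase, had group means of 1.68 ± 0.742, 1.52 ± 0.317, 1.67 ± 0.0726 and 1.32 ± 0.732 FPKM (SD, n = 4) in unexposed, benzo[a]pyrene, triclosan and mixture livers, which overlapped. The small subunits rrm2.1 and rrm2b had means of 0.345 and 0.682 FPKM and were untested.

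**Figure D3:**
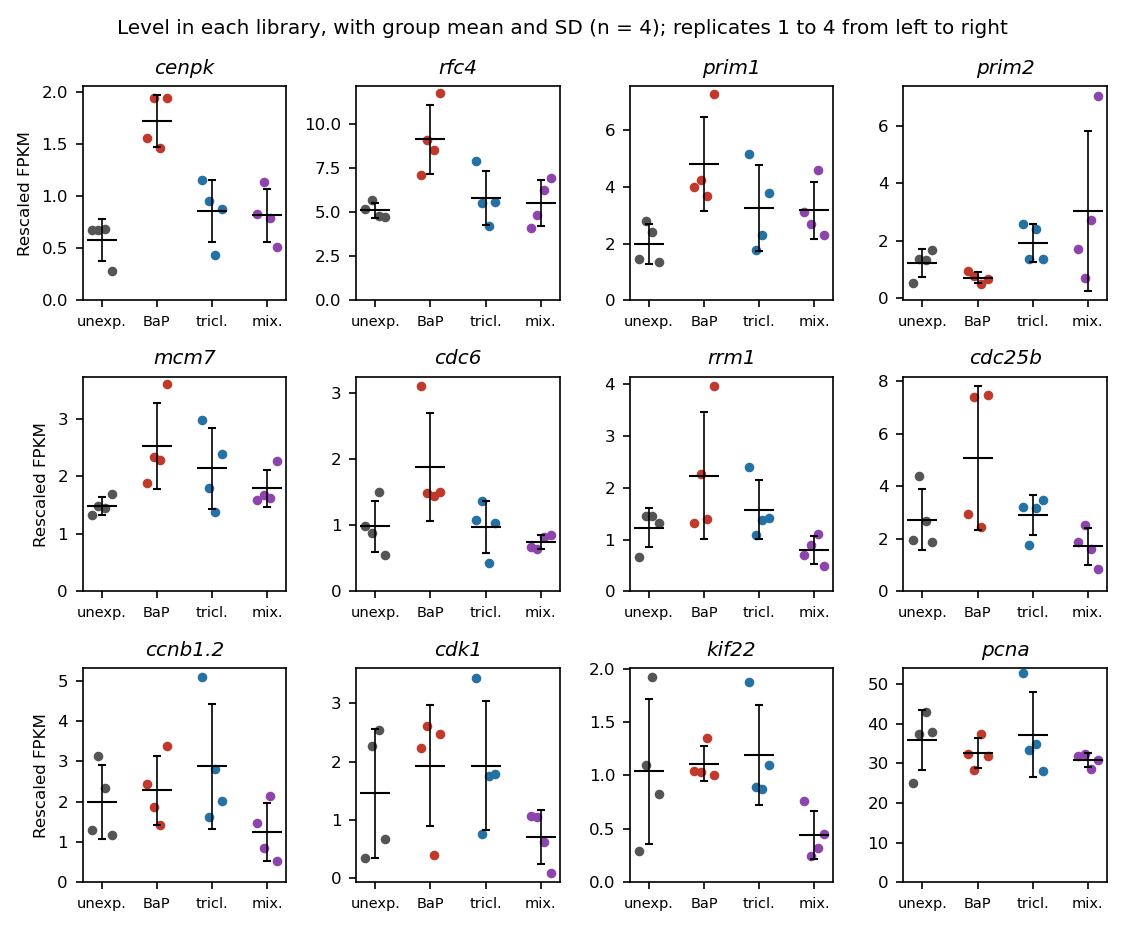
Rescaled FPKM of 12 members in each library (points, replicates 1 to 4 from left to right) with the group mean and SD (n = 4); BaP is benzo[a]pyrene, and each panel has its own vertical axis. cenpk, rfc4, prim1 and mcm7 show benzo[a]pyrene livers above all unexposed livers, while cdk1 and ccnb1.2 spread as widely within groups as between them.

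Among the 6 tested cyclin, kinase and phosphatase genes, ccne1 with the mixture was the only one whose exposed livers did not overlap with the unexposed. cdk1, the mitotic kinase, stood at 0.341, 2.26, 2.54 and 0.668 FPKM in unexposed, 2.24, 2.61, 0.389 and 2.47 in benzo[a]pyrene, 3.44, 0.756, 1.75 and 1.79 in triclosan, and 1.07, 1.04, 0.613 and 0.0888 in mixture livers. Its groups overlapped (log2 difference 0.28, SE 0.38, limma adjusted p = 0.763 with benzo[a]pyrene, and -0.45, SE 0.38, adjusted p = 0.798 with the mixture). ccnb1.2, a cyclin B that activates Cdk1, ran from 1.61 to 5.09 FPKM with triclosan and 0.54 to 2.14 with the mixture, a difference of -0.76 (SE 0.30, adjusted p = 0.998). ccnb3, another B-type cyclin, had 2.27, 1.46, 2.04 and 1.86 FPKM with triclosan and 1.28, 0.97, 1.13 and 0.23 with the mixture, without overlap (-0.64, SE 0.27, adjusted p = 0.998). The unexposed values of ccnb3, 0.317 to 1.9 FPKM, overlapped with both.

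cdc25b, a phosphatase that activates Cdk1, stood at 1.97, 4.37, 2.68 and 1.86 FPKM in unexposed, 2.93, 7.38, 2.45 and 7.48 in benzo[a]pyrene, 3.2, 1.78, 3.17 and 3.46 in triclosan, and 1.87, 2.52, 1.61 and 0.836 in mixture livers. Replicates 2 and 4 of benzo[a]pyrene were far above the other libraries, and mixture and benzo[a]pyrene overlapped by 1 library each (-1.08, SE 0.31, limma adjusted p = 0.192). ccne1, the S-phase cyclin E, had 0.921, 1.23, 0.974 and 1.5 FPKM in unexposed, 1.69, 1.59, 2.18 and 2.17 in mixture livers, with no overlap (0.43, SE 0.14, adjusted p = 0.731). Its benzo[a]pyrene values of 0.814 to 1.63 FPKM did overlap with the unexposed. ccna2, ccnb2 and cdk2 had means of 0.806, 0.592 and 0.363 FPKM over the 16 libraries.

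Only cdc20 and birc5.2 were tested among the mitotic kinases, checkpoint and passenger genes. cdc20, an activator of the anaphase-promoting complex, had group means of 1.17 ± 0.675, 1.82 ± 1.16, 1.57 ± 0.991 and 0.993 ± 0.316 FPKM (SD, n = 4) in unexposed, benzo[a]pyrene, triclosan and mixture livers, with overlap throughout. The highest was 3.51 FPKM, in benzo[a]pyrene replicate 4, and the next 2.79, in triclosan replicate 1. plk1, a mitotic kinase, averaged 0.524 ± 0.191 FPKM in unexposed and 0.284 ± 0.196 in mixture livers. The Aurora kinase genes aurka and aurkb had means of 0.314 and 0.308 FPKM, and the checkpoint genes bub1 and bub3 of 0.808 and 0.547.

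The smallest p-value of any member belonged to cenpk, which reached the filter only through the benzo[a]pyrene libraries, where it was highest, so that its p-value is given as a description. cenpk, of the inner kinetochore (ENSXETG00000000456, GL172723.1, 1438629 to 1455727), stood at 0.679, 0.676, 0.681 and 0.277 FPKM in unexposed, 1.56, 1.94, 1.46 and 1.94 in benzo[a]pyrene, 1.15, 0.954, 0.439 and 0.88 in triclosan, and 0.826, 1.13, 0.793 and 0.511 in mixture livers. Every benzo[a]pyrene liver was above all 12 others. The log2 difference from the unexposed was 0.79 (SE 0.16, limma adjusted p = 0.095), and that of mixture from benzo[a]pyrene was -0.59 (SE 0.16, adjusted p = 0.187). With no filter on level the first difference had an adjusted p of 0.15. These values rest on 3 to 29 implied fragments a library. Without benzo[a]pyrene replicate 3 it was 0.84 with an adjusted p of 0.0426, the single setting in which any member passed, with the same limit from the filter. In that setting 46 genes were called in place of 2.

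cenpu, another inner kinetochore gene, had 0.67, 0.632, 0.62 and 0.929 FPKM in unexposed and 1.12, 1.63, 1.3 and 1.79 under benzo[a]pyrene, with no overlap (0.52, SE 0.14, limma adjusted p = 0.14). With triclosan it stood at 0.877 to 1.29 FPKM and with the mixture at 0.755 to 1.48 (0.35, SE 0.14, adjusted p = 0.731). nuf2 and spc25, of the Ndc80 complex that holds microtubules, had benzo[a]pyrene differences of 0.63 (SE 0.21) and 0.54 (SE 0.24), and spc24 of the same complex had 0.07 (SE 0.24). ndc80 itself was untested, at 0.101 to 1.65 FPKM. cenpa, the centromeric histone, was at 3.96 ± 0.583 FPKM in unexposed and 4.14 ± 1.42 under benzo[a]pyrene (SD, n = 4).

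**Figure D4:**
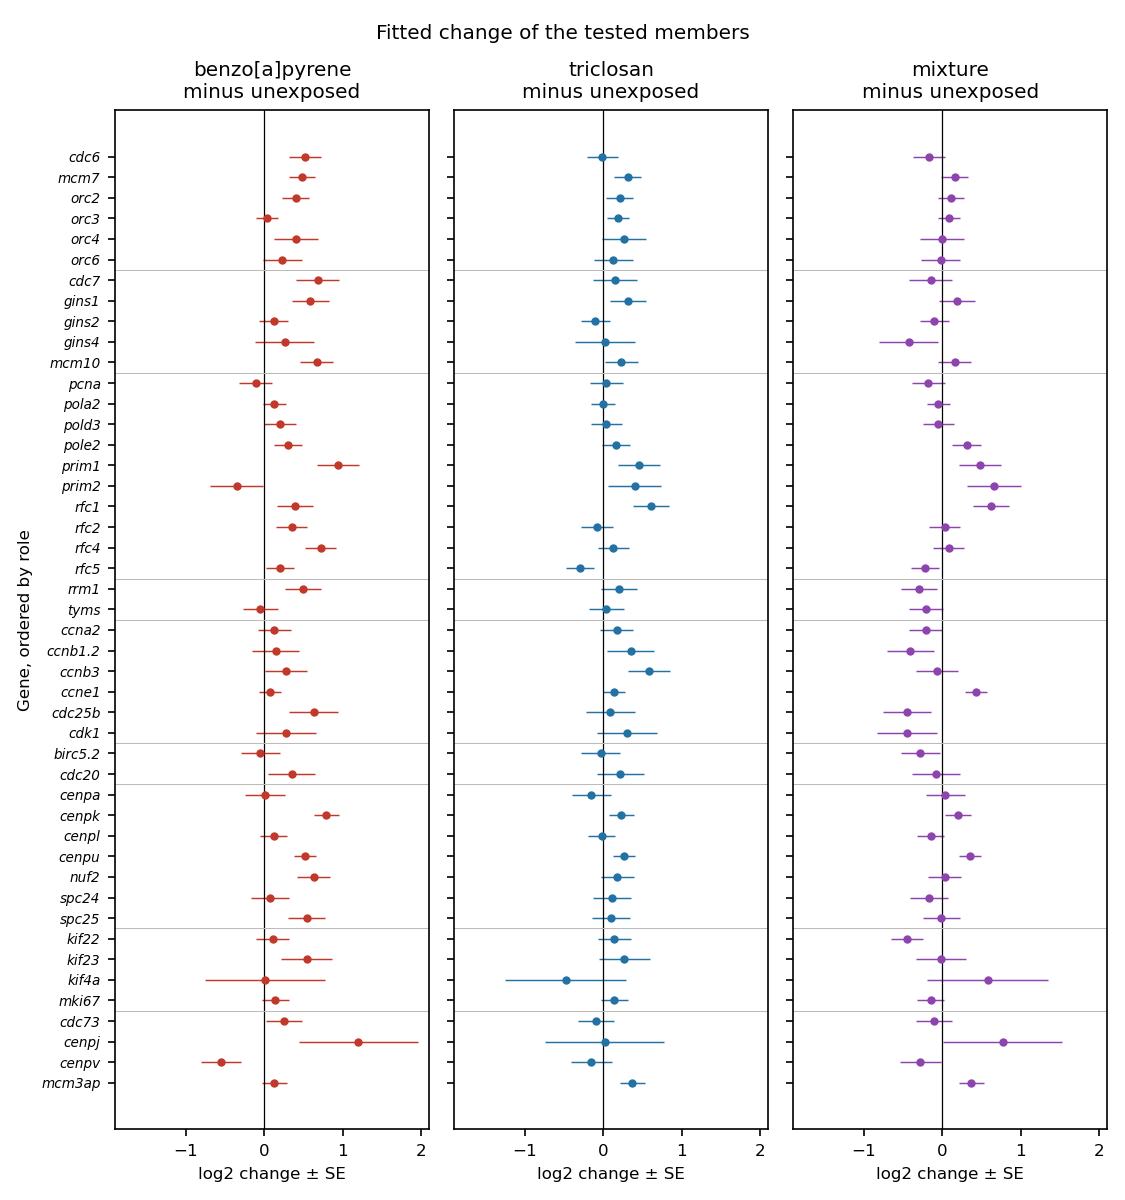
Fitted log2 difference from the unexposed livers with its SE for the 46 tested members, ordered by role, in each exposure. With benzo[a]pyrene 41 of 46 points lie to the right of 0, with triclosan 35 and with the mixture 20, and kif4a and cenpj carry the widest errors.

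Among kinesins, kif22, a chromosome-arm motor, was lower in mixture livers than in either single exposure. It stood at 0.295, 1.1, 1.92 and 0.827 FPKM in unexposed, 1.04, 1.03, 1.35 and 1.0 in benzo[a]pyrene, 1.87, 0.896, 0.877 and 1.1 in triclosan, and 0.758, 0.25, 0.323 and 0.449 in mixture livers. All mixture values were below those of both exposures, while the unexposed replicate 1 was within the mixture range. The differences were -0.55 (SE 0.21, limma adjusted p = 0.289) from benzo[a]pyrene and -0.59 (SE 0.21, adjusted p = 0.998) from triclosan. kif11, the motor of spindle bipolarity, was untested at 0.0506 to 1.17 FPKM. kif23, a cytokinesis motor, reached 5.58 FPKM in benzo[a]pyrene replicate 4 and at most 2.82 elsewhere. mki67 had group means of 0.955 ± 0.274, 1.16 ± 0.318, 1.18 ± 0.524 and 0.752 ± 0.201 FPKM (SD, n = 4), with overlap.

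Of the 4 tested rows that were counted apart, cenpj (1.2, SE 0.76), cdc73 (0.25, SE 0.23) and mcm3ap (0.13, SE 0.16) lay above 0 with benzo[a]pyrene and cenpv below. cenpv had 73.9, 73.7, 52.3 and 45.6 FPKM in unexposed and 34.7, 38.5, 53.5 and 38.0 under benzo[a]pyrene, a difference of -0.55 (SE 0.26, limma adjusted p = 0.338) with overlap. mcm3ap, an mRNA export gene, had 0.911, 1.05, 0.824 and 1.04 FPKM in unexposed and 1.52, 1.54, 1.08 and 2.01 in triclosan livers, with no overlap (0.37, SE 0.16, adjusted p = 0.965). cdc73, of the Paf1 transcription complex, was at 5.72 ± 1.06 and 6.98 ± 1.22 FPKM (SD, n = 4) in unexposed and benzo[a]pyrene livers, and its row overlaps that of B3GALT2.

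Single libraries stood apart across many members. Benzo[a]pyrene replicate 4 was the highest of all 16 libraries for 36 of the 93 members assigned a replication or division role, and triclosan replicate 1 for 18. At the other end, mixture replicate 4 was the lowest of the 16 for 30 and unexposed replicate 1 for 17. Within its own group, triclosan replicate 1 was highest in 49 of 91 members with signal, while it was highest in 23.9% of all tested genes. Unexposed replicate 1 was lowest of its group in 48 of 90 (20.6% of all tested genes), benzo[a]pyrene replicate 4 highest in 47 of 91 (24.7%) and mixture replicate 4 lowest in 45 of 92 (37.7%). These member counts include untested rows of low level, whereas the shares cover tested genes only, so they are not like for like. The counts over all 16 libraries have no such share beside them. The median deviation of the 42 tested members with such a role from their own means was 0.05, 0.18, 0.12 and 0.47 on the log2 scale in the benzo[a]pyrene livers. It was -0.32, 0.11, -0.09 and -0.18 in the unexposed, 0.35, -0.08, -0.11 and 0.05 in the triclosan, and -0.13, -0.15, 0.0 and -0.25 in the mixture livers.

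The tested markers of red blood cells stood higher in the benzo[a]pyrene livers as well. The 15 erythroid marker rows with values in all libraries summed to 795, 522, 508 and 483 FPKM in unexposed and 1710, 2310, 991 and 2400 under benzo[a]pyrene, with no overlap. They summed to 421 to 954 FPKM with triclosan and 410 to 1240 with the mixture. Most of each sum came from hbd and alas2, which had 345 and 356 FPKM in unexposed replicate 1 and 1270 and 863 in benzo[a]pyrene replicate 4. The far higher globin row hbg1 is left out, as some libraries lack values. Where given, it overlapped: 32200 to 66800 FPKM in unexposed, 37600 and 87300 in benzo[a]pyrene, and 31600 to 99300 in triclosan livers. The globin row hba1 had no value in any benzo[a]pyrene library. Of the untested rows, rhag had a lower mean with benzo[a]pyrene (0.0161 against 0.255 FPKM) and hbe1 a higher one (0.292 against 0.138). All 12 tested erythroid markers lay above 0 with benzo[a]pyrene (median 0.94, smallest limma adjusted p = 0.0793) and all 12 below 0 in mixture against benzo[a]pyrene (median -0.79). None was called in either comparison. The row epb42 was at 0 in all libraries, while a further row of that name, EPB42, was among those tested. Its difference with benzo[a]pyrene was 0.59 (SE 0.31, limma adjusted p = 0.377). Hepatocyte markers lay below 0 in 12 of 13 with benzo[a]pyrene and bile duct markers in 7 of 7. Also below 0 there were 3 of 3 granulocyte markers (median -0.82), 3 of 4 endothelial markers and 1 of 4 macrophage markers. Lymphocyte markers summed to 2.55, 4.73, 2.23 and 3.43 FPKM in unexposed livers, to 7.66, 4.3, 4.51 and 9.93 with benzo[a]pyrene, to 3.54 to 7.68 with triclosan and to 2.65 to 3.18 with the mixture. Of 4 tested, 3 lay above 0 with benzo[a]pyrene (median 0.62), and the sums of benzo[a]pyrene and mixture did not overlap. Of the 3, cd3e and CD247 reached the filter only with the benzo[a]pyrene libraries, so this count and median are descriptions. Both also needed the triclosan libraries, and CD247 the mixture libraries as well. ptprc, the tested marker below 0 with benzo[a]pyrene (-0.28), needed the unexposed and the triclosan libraries. CD247 was fitted at 0.52 with benzo[a]pyrene, 0.6 with triclosan and 0.61 with the mixture, all with that limit from the filter. Macrophage markers lay below 0 in 4 of 4 in mixture against benzo[a]pyrene (median -0.86), with sums of 65.7 to 145 FPKM under benzo[a]pyrene and at most 72 under the mixture. The part of red blood cells, lymphocytes, macrophages or other cell types in the values of the members was not tested. The library with the highest erythroid sum, benzo[a]pyrene replicate 4, was also the one most often highest among the members, and triclosan replicate 1, the second in median deviation, had a sum of 802 FPKM.

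**Figure D5:**
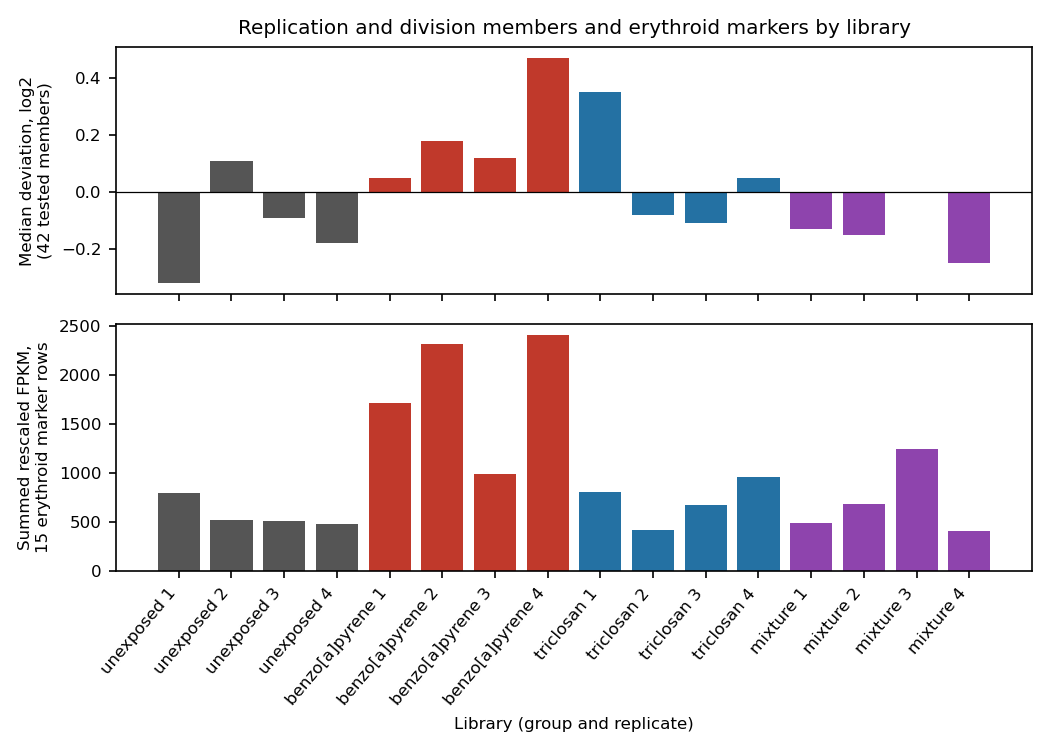
Upper panel, median over 42 tested members of log2(rescaled FPKM + 1) minus each gene's mean; lower panel, summed rescaled FPKM of 15 erythroid marker rows, for each library. The globin rows hba1 and hbg1, which lack values in some libraries, are not in the sum. The 4 benzo[a]pyrene livers hold 4 of the 5 highest erythroid sums, and benzo[a]pyrene replicate 4 is highest in both panels.

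Cell cycle genes outside the name families were read in the same fit. From 9 lists with 117 genes other than the members, 104 rows were found, 53 were tested and none was called in any comparison. With benzo[a]pyrene 43 lay above 0 and 10 below (50.4% of all genes above), with triclosan 41 and 12 (49.8%), and with the mixture 23 and 30 (47.8%). In mixture against benzo[a]pyrene 13 lay above 0 and 40 below (47.0% of all genes above). Of the 53, 5 had an unadjusted limma p under 0.05 on the higher side with benzo[a]pyrene and 0 on the lower (8.47% and 6.06% of all genes). These counts were 1 and 1 with triclosan (2.05% and 2.31%) and 0 and 3 with the mixture (3.35% and 3.21%). In mixture against benzo[a]pyrene they were 1 and 11 (5.58% and 7.54%). All 11 tested genes of the anaphase-promoting complex list lay above 0 with benzo[a]pyrene and with triclosan, as did all 5 of cohesin and condensin. All 7 of the E2F, DREAM and MYB list lay above 0 with benzo[a]pyrene. The other lists were mixed with benzo[a]pyrene, above 0 against below: fork 6 and 2, checkpoint 4 and 1, spindle 6 and 3, nucleotide supply 2 and 2. The G1 cyclin and the licensing regulator lists had 1 and 1 each.

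The smallest p-value among them with benzo[a]pyrene was that of tfdp2, the partner that E2F factors bind DNA with. It had 0.475, 0.385, 0.637 and 0.647 FPKM in unexposed and 1.34, 2.97, 0.949 and 1.74 under benzo[a]pyrene, without overlap (0.79, SE 0.18, limma adjusted p = 0.116). All its unexposed values were under the 1 FPKM of the filter. Whether such genes outside the name families passed the filter only through 1 group was not checked, so their counts and p-values are descriptions. smc4, of condensin, had 1.1, 1.84, 1.61 and 1.28 FPKM and then 2.08, 3.09, 1.77 and 3.9, with an overlap of 1 library (0.57, SE 0.22, adjusted p = 0.272). With the mixture, the smallest was that of cdca8, a subunit of the chromosomal passenger complex, at 0.68, 0.163, 0.601 and 0.162 FPKM against 0.816 to 1.96 in unexposed livers (-0.63, adjusted p = 0.731). myc, a growth-promoting transcription factor, had the smallest with triclosan (-0.76, adjusted p = 0.965). These genes of other families, like the members, are described by their values, since none passed the test.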

How the data were processed

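The authors deposited gene-level FPKM for 16 libraries, per the file headers, made with a stranded messenger RNA kit, per the labels' protocols. The submitters' processing notes name Cufflinks 0.0.7, TopHat, TopHat2 0.6, Bowtie 0.12.7 and Trimmomatic 0.32.1 with no role or order. The sources used here name no genome build, annotation release or use of strand. Coordinates are those of the files. Read counts were not used, since the tables hold FPKM, so depth was taken from the width of the deposited confidence intervals. Their implied fragments were whole within 0.05 for 36.6% of the member values below 1 FPKM.

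Estimates with a status other than OK (54 values of 10 genes, no member) were set missing. Libraries were rescaled by median-of-ratios factors (0.584 to 1.34) over 3959 genes. Genes with at least 1 FPKM in at least 4 of 16 libraries were fitted as log2(FPKM + 1) in limma 3.58.1 (R 4.3.3, trend and robust options), with 1 mean per group over all 16 libraries and 12 residual degrees of freedom. This scale understates the changes of low genes. Tests were two-sided, and p-values were adjusted by Benjamini-Hochberg over 6919 genes. The fit was tested on simulated data. Groups were taken from the labels, which call the samples biological replicates. No 2 libraries held identical values. A gene was named if it was among the 4 members with the smallest p in a comparison, among the 6 highest, a landmark of its role, or in a paralogue pair. Others (such as those that do not overlap between groups) were named after their values were seen. The members, marker lists and pathway lists were chosen with earlier results of these data known. Same-numbered replicates did not deviate together (24 pairs, r from -0.25 to 0.263, median -0.047), so numbers were not used as pairs. Alternatives changed the rescaling, pseudocount, filter, status rule, block, groups fitted and each library left out. Promoter, miRNA and protein sequences were not used here.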

Additional observations from a re-analysis of the deposited data

Results flagged for a closer look

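A library was set apart where the gap to its nearest neighbour was large against the range of its group of 4. Over 186 groups of 4 values of the named members this happened 16 times. The cut-off gives about 1 in 20 for normally distributed values, which unlogged FPKM need not be. A row at 0 in the rest of its group meets it whenever 1 value is above 0. No excess over chance is therefore read from the count. In unexposed livers, cenpk in replicate 4 (0.277 FPKM, others 0.676 to 0.681) and rrm1 in replicate 1 (0.666, others 1.33 to 1.46) were low, and cenpu in replicate 4 (0.929, others 0.62 to 0.67) was high. In benzo[a]pyrene livers, cdc6 in replicate 1 (3.11 FPKM, others 1.44 to 1.5), prim1 in replicate 4 (7.27, others 3.67 to 4.25) and kif22 in replicate 3 (1.35, others 1.0 to 1.04) were high, and cdk1 in replicate 3 (0.389, others 2.24 to 2.61) was low. In triclosan livers, ccnb2 in replicate 1 (1.72 FPKM), cenpj in replicate 2 (14.8) and rfc3 in replicate 3 (1.14) were high. In mixture livers, mcm3ap in replicate 4 was low (0.937 FPKM, others 1.69 to 1.78). The other cases were rows at 0 in the remaining libraries of the group: birc5.1 in unexposed replicate 3 (0.0625 FPKM) and mixture replicate 2 (0.143), ccnb1 in benzo[a]pyrene replicate 4 (0.036), and mcm6 in triclosan replicate 2 (0.016) and mixture replicate 1 (0.0144).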

How the results depend on the processing

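With benzo[a]pyrene, the 2 genes called became 0 without rescaling, with a pseudocount of 0.1, with only the 2 groups compared or without both libraries rich in ribosomal RNA, and 1 with no filter. The 5 genes called between mixture and benzo[a]pyrene became 3 without rescaling, and 0 with only the 2 groups or without both libraries rich in ribosomal RNA. The 5 genes of the test of any difference became 2 without rescaling, 1 with a pseudocount of 0.1, 3 with no filter and 0 without both such libraries. With only the 2 groups, 1 gene was called for mixture against unexposed and 1 against triclosan. The median change of the members with benzo[a]pyrene was 0.442 with a pseudocount of 0.1 and 0.127 with no filter. With the replicate block, 0 genes were called in each of these 3 tests, and the pairing is by number only. With each library left out in turn, calls ranged from 0 to 46 for benzo[a]pyrene, 0 to 27 for mixture against benzo[a]pyrene and 0 to 19 for any difference, and the largest of each was without benzo[a]pyrene replicate 3. Calls stayed at 0 to 0 in the other comparisons. Medians of the members ranged from 0.187 to 0.408 with benzo[a]pyrene, 0.0504 to 0.257 with triclosan and -0.12 to 0.0514 with the mixture. The cause of these shifts was not tested. Of 317 refits of 20 changes of named members, 316 stayed on their side of the threshold, 1 (cenpk without benzo[a]pyrene replicate 3) passed it and 0 turned direction. These 20 were the changes with the 4 smallest p-values in each comparison, a choice that makes a turn of direction unlikely. Other named members did turn with benzo[a]pyrene: kif4a ranged from -0.4 to 0.42 over the refits and tyms from -0.27 to 0.07. Further ones that turned included birc5.2 (-0.2 to 0.11), cenpa (-0.12 to 0.21), kif22 (-0.09 to 0.3) and gins4 (-0.17 to 0.5). ccne1 (-0.01 to 0.17) and ccnb1.2 (-0.01 to 0.32) turned as well. Depth limits the lowest rows, whose values rest on few fragments.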
